A study of Mus musculus with 4 samples.

Results

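The 8 genes that set and read melanocyte identity were followed in B16-F10 cells, a mouse melanoma line, cultured for 24 h without (control) or with 100 ng/mL recombinant Cdh1, the product named by the mouse gene symbol of E-cadherin. The 8 genes were the transcription factors Mitf, Sox10, Sox9, Pax3 and Tfap2a and the receptors Kit, Ednrb and Mc1r. Their probes were found by RefSeq accession, which gave 16 of the 56605 non-control probes on the array and 8 of 23462 named genes. Each of 2 independent culture sets had 1 control and 1 Cdh1-treated culture, so that 4 one-colour arrays were measured. Control and treated cultures alike grew in DMEM with 10% FBS, and a single established line stands for the lineage here. Nothing in the labels says more of how the sets were separated. For Cdh1 against control, p-values measure the spread between the 2 cultures of a group, 1 from each set. For set 2 against set 1 they measure the spread between the control and the Cdh1 culture of a set. They do not measure the spread between repeated sets.

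MITF is the basic helix-loop-helix leucine zipper factor that switches on pigment genes and many growth and survival genes of the melanocyte lineage. Its gene has several promoters, and the one used in melanocytes is driven by PAX3, SOX10, LEF1 and the cyclic AMP-responsive factor CREB. MC1R raises cyclic AMP when it binds alpha-MSH, KIT is the receptor tyrosine kinase for stem cell factor and signals through MAP kinase, and EDNRB is the receptor for endothelins. SOX9 is a close relative of SOX10, and TFAP2A is an AP-2 factor that works beside MITF at many melanocyte genes.

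Promoter windows from RefSeq (GRCm38.p6, 250 bases before to 50 after a transcript start) were at hand for 5 of the 8 genes, with 9 windows in all. For Mitf, 3 start sites were listed, and those windows were searched on both strands for CATGTG and CACGTG, which are E-boxes of the kind MITF binds, for the cyclic AMP element TGACGTCA, for CTTTGA, which LEF1 and TCF factors bind, and for the SOX core letters ACAAAG and ACAATG. The AP-2 pattern GCCNNNGGC was searched as well. The first window below is the most downstream of the 3 Mitf windows, the second is the Mc1r window, and the third belongs to the tyrosinase gene Tyr, shown because Tyr is the classic MITF target and one of the pigment genes described further on. Capitals mark the matches of the E-boxes, the cyclic AMP element and CTTTGA on either strand. The Mitf window is chr6:97991533-97991832 on the plus strand, the Mc1r window chr8:123406832-123407131 on the plus strand, and the Tyr window chr7:87493463-87493762 on the minus strand.
Mitf: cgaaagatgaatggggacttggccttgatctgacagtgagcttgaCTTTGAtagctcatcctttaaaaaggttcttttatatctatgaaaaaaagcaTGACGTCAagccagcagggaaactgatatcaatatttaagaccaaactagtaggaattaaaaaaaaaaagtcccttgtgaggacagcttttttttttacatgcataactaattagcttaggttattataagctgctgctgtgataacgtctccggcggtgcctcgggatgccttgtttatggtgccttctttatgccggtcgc
Mc1r: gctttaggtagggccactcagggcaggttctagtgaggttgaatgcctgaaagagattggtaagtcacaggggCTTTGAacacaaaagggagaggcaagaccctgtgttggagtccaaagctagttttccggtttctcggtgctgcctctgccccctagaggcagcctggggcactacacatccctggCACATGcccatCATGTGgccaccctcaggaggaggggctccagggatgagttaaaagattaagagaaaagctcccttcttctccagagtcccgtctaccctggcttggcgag
Tyr: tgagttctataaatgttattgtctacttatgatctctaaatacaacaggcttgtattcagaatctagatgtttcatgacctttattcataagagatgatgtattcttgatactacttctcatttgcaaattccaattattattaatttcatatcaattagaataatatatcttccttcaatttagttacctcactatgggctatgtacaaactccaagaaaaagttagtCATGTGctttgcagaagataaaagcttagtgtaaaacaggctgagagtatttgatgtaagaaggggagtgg
The downstream Mitf window held TGACGTCA, its first base at -153 from the start site, and CTTTGA, its first base at -205. TGACGTCA was in 1.79% of all 32851 windows of 300 bases and CTTTGA in 16%. The other 2 Mitf windows held no TGACGTCA, and the middle one held CTTTGA, its first base at +9 from the start site. The Mc1r window held CATGTG at -62 (minus strand) and -51 (plus strand) and CTTTGA at -177, and the Tyr window held CATGTG at -21. CATGTG was in 14.2% of all windows and CACGTG in 7.15%. The SOX letters ACAAAG and ACAATG, in 18.7% and 12.6% of all windows, were in none of the 9 windows of these genes. GCCNNNGGC, in 16.6% of all windows, was in the Kit, Ednrb and Mc1r windows and in the middle Mitf window. A match describes the letters and shows no binding, and a missing match says only that these letters are not in the window.

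Transcripts of 7 of the 8 genes were measured above background in every culture. Signals are on a log2 scale from which the 75th percentile of each array was taken off, so that 0 is that percentile; levels of different probes are not set against each other. A total of 13 of the 16 probes, covering 7 genes, were well above background on all 4 arrays, which is Agilent's own flag. The markers Tyr, Tyrp1, Dct, Pmel, Mlana and Slc45a2 were well above background on all 4 arrays, 6 of 6. Of the markers of other cells, Ptprc, Adgre1 and Cd79a of leukocytes, Cdh5, Kdr, Tek and Emcn of endothelium, Lum, Dcn and Col3a1 of fibroblasts, and Krt1, Krt10 and Dsg3 of keratinocytes were well above background on none.

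The 3 Mitf probes were read at high signals. The brightest, labelled with accession NM_001113198, had a signal of 5.90 without and 6.02 with Cdh1 in set 1, and of 5.59 without and 5.56 with it in set 2. A further probe of that accession had 4.12, 4.17, 3.64 and 3.66 in the same order, and the probe labelled NM_008601 had 3.25, 3.29, 2.81 and 2.77. In each of the 3 probes both set 1 arrays lay above both set 2 arrays, whereas control and Cdh1 arrays overlapped. The labels do not say which exon a probe lies on, so the transcripts from the 3 start sites were not told apart.

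Sox10, which keeps Mitf and other lineage genes active, was read by 1 probe (NM_011437) at 5.12 without and 5.07 with Cdh1 in set 1, and at 5.31 and 5.29 in set 2. Pax3, the paired-box factor of the neural crest, was read by 1 probe (NM_008781) at 4.62, 4.55, 4.47 and 4.42 in that order. For both genes the sets did not overlap, with Sox10 higher and Pax3 lower in set 2.

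Sox9 was the gene of the 8 that varied most between arrays. Its brighter probe (NM_011448) had signals of 0.43 without and 0.20 with Cdh1 in set 1, against -2.36 and -2.39 in set 2. Its dimmer probe, of the same accession, had -2.24 and -2.36 in set 1 and -3.72 and -4.06 in set 2. Both probes were high in set 1 and low in set 2 in either treatment.

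Tfap2a had 4 probes. The brightest (NM_001122948) was nearly level over the arrays, at 2.98 without and 2.87 with Cdh1 in set 1 and at 2.94 and 2.85 in set 2, and the next had 0.82, 0.73, 0.80 and 0.76. In both probes the 2 Cdh1 arrays lay below the 2 control arrays, by at most 0.10 in the mean. The 2 dim probes lay between -2.81 and -2.37 on all arrays and did not share this order.

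Among the receptors, Mc1r (NM_008559) had signals of 5.03 without and 5.0 with Cdh1 in set 1, and of 4.82 and 4.87 in set 2. Kit (NM_001122733) had -0.07, 0.00, 0.35 and 0.30 in that order, so it was higher in both arrays of set 2. Ednrb was at or near background. Of its 3 probes, those labelled NM_001136061 and NM_001276296 were well above background on no array, with signals between -8.27 and -7.81. The probe labelled NM_007904 was flagged well above background on Cdh1 set 1 (-5.38) and control set 2 (-4.98) but not on control set 1 (-5.85) or Cdh1 set 2 (-5.88). Since no group had both arrays above background, Ednrb was left out of the main fit, and no fold is given for it.

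**Figure D1:**
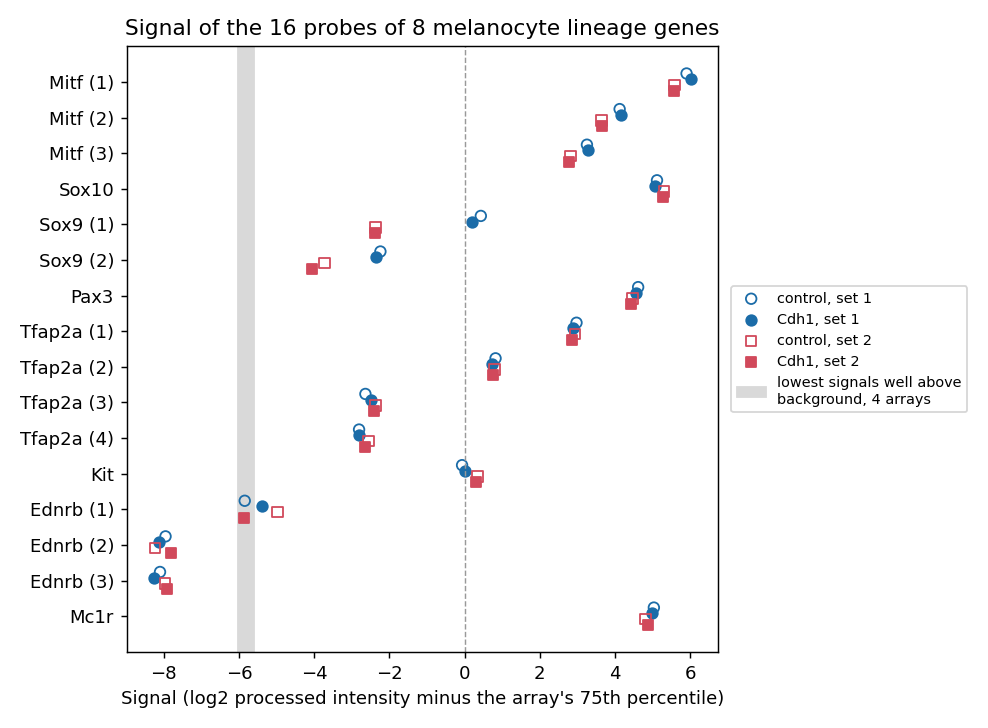
Signal of each of the 16 probes on the 4 arrays; the x axis is the log2 signal relative to the 75th percentile of each array (dashed line at 0), open symbols are control, filled are Cdh1, circles set 1 and squares set 2, and numbers in brackets rank the probes of a gene by mean signal. The grey band spans the lowest signals flagged well above background, between -6.04 and -5.60 on the 4 arrays; the Ednrb probes lie in, near or below it, and the Sox9 probes separate by set.

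Whether recombinant Cdh1 altered these lineage genes was the question the series was set up to answer for all transcripts. No change was detected in the 7 genes tested, and Ednrb was not tested in the main fit. Calls were made at a limma p below 0.05 after Benjamini-Hochberg adjustment over 32571 probes, with n = 2 cultures in each group. Treatment gave 0 calls among the 13 member probes tested, against 0.0% of all probes. At an unadjusted limma p below 0.05 there were also 0 of the 13, against 1.72% of all probes, and limma with a trend and robust prior gave 0 as well. With the set as a replicate block 0 of the 13 passed at an unadjusted p below 0.05, against 7.17% of all probes. The 13 adjusted p-values were all 1.

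Mitf differed by 0.05 in the mean for its brightest probe (SE 0.22), being 0.12 in set 1 and -0.02 in set 2. Its other probes differed by 0.03 and -0.01. Sox10 differed by -0.03 (SE 0.14), with -0.05 in set 1 and -0.02 in set 2, and Pax3 by -0.06 (SE 0.12), with -0.07 and -0.05. The 95% limma interval was -0.43 to 0.37 for Sox10 and -0.57 to 0.67 for the brightest Mitf probe. These values leave out the pairing by set. With the set as a replicate block the intervals were -0.22 to 0.16 for Sox10 (SE 0.06) and -0.18 to 0.28 for that Mitf probe (SE 0.07). The interval for Pax3 with that block was -0.25 to 0.13 (SE 0.06).

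Sox9 had the largest mean differences, of -0.13 (SE 1.36) at the brighter probe and -0.23 (SE 0.81) at the dimmer, each group holding 1 culture of either set. Within the sets the values were -0.23 and -0.03 at the brighter and -0.12 and -0.34 at the dimmer probe, lower with Cdh1 in each case. With the set as a replicate block the SE of both fell to 0.08 and 0.09, and the adjusted p-values were 0.861 and 0.735. The 95% interval with that block was -0.40 to 0.13 at the brighter probe. Among all tested probes 25.0% had a larger mean difference than the brighter Sox9 probe in size, and 12.5% a larger one than the dimmer.

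The brightest Tfap2a probe was -0.10 (SE 0.10) with Cdh1, at -0.10 in set 1 and -0.09 in set 2, with a 95% interval of -0.38 to 0.18. With the set as a replicate block that interval was -0.29 to 0.09. Both Cdh1 arrays lay below both control arrays in 2 of the 13 member probes, both of Tfap2a, against 8.38% of all tested probes. The opposite order was seen in 0 of the 13, against 9.76%, and the arrays stood apart either way in 18.1% of all tested probes. Kit differed by 0.01 (SE 0.21) and Mc1r by 0.01 (SE 0.14), and in both the sign was opposite in the 2 sets. With the set as a replicate block the SE was 0.07 for Kit and 0.06 for Mc1r. The direction was the same in both sets for 7 of the 13 member probes, against 52.9% of all probes.

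**Figure D2:**
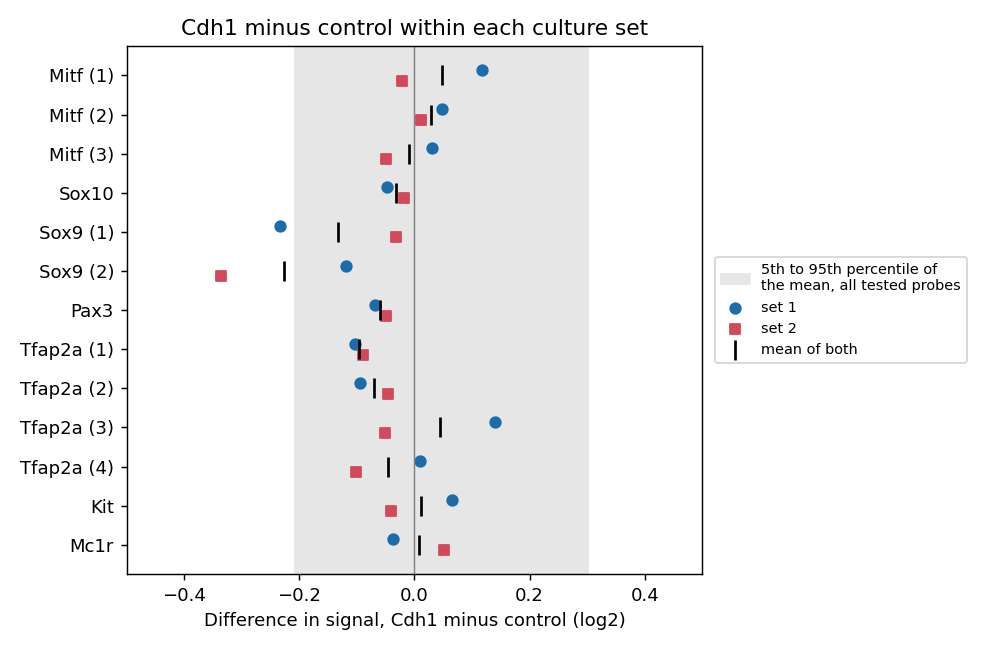
Cdh1 minus control in log2 signal (x axis) for the 13 tested member probes, in set 1 (circles), set 2 (squares) and their mean (bars), with the 5th to 95th percentile of the mean over all 32571 tested probes in grey, -0.21 to 0.30. No member probe differed by more than 0.34 in either set.

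The 2 culture sets differed in Sox9, Mitf and Kit, in the same direction without and with Cdh1. With the treatment group as a block only Sox9 was called. Sox9 was 6.47-fold lower in set 2 at its brighter probe and 3.01-fold lower at its dimmer probe, which was 1.96-fold lower after normexp and quantile normalization. Mitf was lower by 1.31-, 1.41- and 1.39-fold at its 3 probes, and Kit was higher by 1.28-fold. Of the 13 member probes 6 were called between set 2 and set 1 at a limma adjusted p under 0.05, against 14.0% of all tested probes. That fit had 2 arrays per set, 1 control and 1 Cdh1, so its p-values measure spread within a set. Of the 6, 1 was higher in set 2 (6.23% of all probes) and 5 were lower (7.8%). The 6 were the 3 probes of Mitf, the 2 of Sox9 and the 1 of Kit. By gene, 3 of 7 were called, against 17.5% of 14452 genes.

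The brighter Sox9 probe differed by -2.69 (SE 0.10, limma adjusted p 0.00772), at -2.80 without and -2.59 with Cdh1. Only 0.0860% of all tested probes differed more between the sets in size. The dimmer probe differed by -1.59 (SE 0.14, limma adjusted p 0.0157). With the treatment group as a block, both Sox9 probes were still called, at a limma adjusted p of 0.0422 each, and they were the 2 called of the 13, against 4.9% of all probes.

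The Mitf probes differed by -0.39, -0.50 and -0.48 from the brightest to the dimmest, with limma adjusted p-values of 0.0419, 0.0203 and 0.0225. Without Cdh1 these were -0.32, -0.48 and -0.44, and with it -0.46, -0.52 and -0.52. Kit differed by 0.36 (SE 0.06, limma adjusted p 0.0384), at 0.41 without and 0.31 with Cdh1. With the group as a block neither Mitf nor Kit was called (adjusted p 0.0798, 0.0542 and 0.0585 for Mitf and 0.0801 for Kit), and under median centring Kit (0.0605) and the brightest Mitf probe (0.063) were not called; quantile normalization lost that Mitf probe too (0.069). Without any 1 of the 4 arrays no probe of the whole array was called, so the calls need all 4.

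The other lineage genes gave smaller differences. Sox10 was 0.20 higher in set 2 (95% interval 0.05 to 0.36, limma adjusted p 0.0876), Mc1r 0.18 lower (-0.33 to -0.02, 0.118) and Pax3 0.14 lower (-0.31 to 0.03, 0.189), and none was called. The brightest Tfap2a probe differed by -0.03 (-0.23 to 0.17). Sox10 passed the threshold after quantile normalization (0.27, limma adjusted p 0.047), after normexp and with limma's trend and robust prior. Mc1r (limma adjusted p 0.00502) and Pax3 (0.025) passed it with that prior as well. That prior called 10714 of the 32571 tested probes and normexp 8499, against 4572 in the main fit. The 2 arrays of set 2 stood clear of those of set 1 in 11 of the 13 probes, against 66.5% of all tested probes (32.4% with set 2 above set 1 and 34.2% with set 2 below). In bulk RNA, fewer cells with a transcript and less RNA per cell cannot be told apart.

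**Figure D3:**
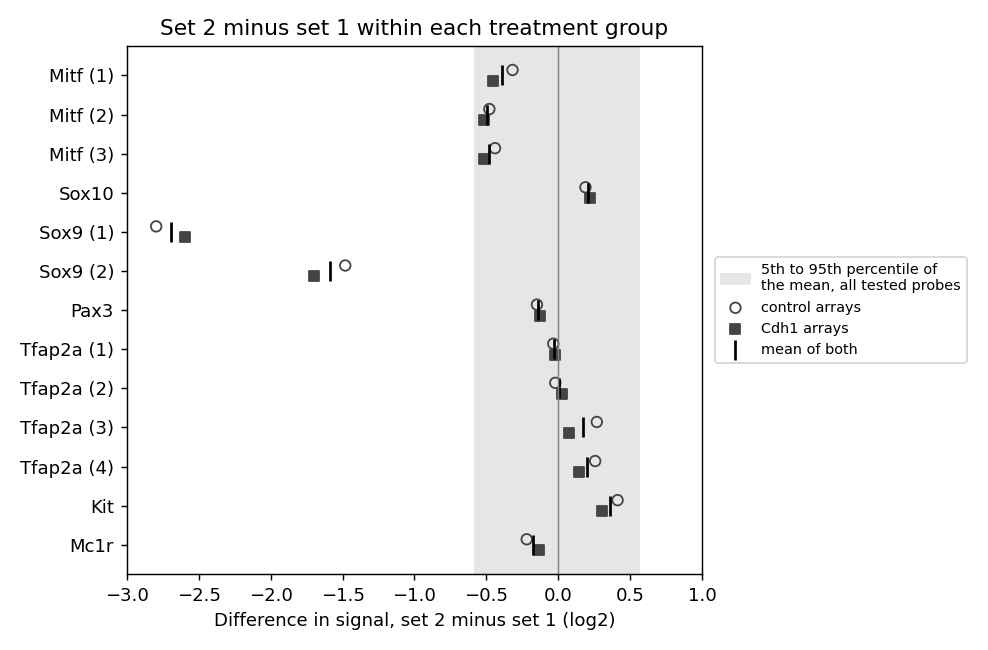
Set 2 minus set 1 in log2 signal (x axis) for the 13 tested member probes, without Cdh1 (open circles), with Cdh1 (squares) and as their mean (bars), with the 5th to 95th percentile of the mean over all tested probes in grey, -0.58 to 0.56. The 2 Sox9 probes lie far to the left of the band, at -2.69 and -1.59, and the 3 Mitf probes lie inside it near its lower edge.

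Genes around the 8 were followed in 7 lists of 160 genes, of which 158 were named on the array and 126 tested. With Cdh1, 0 of the 126 were called (limma, smallest adjusted p 1), and the median difference was -0.02 against -0.01 over all genes. By contrast 35 of the 126 differed between the sets, 7 higher and 28 lower in set 2, against 17.5% of all genes, and the median was -0.10 against -0.03. Some genes were in more than 1 list.

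Of the pigment genes of the MITF programme, 9 of 17 (52.9%) were called, all 9 lower in set 2, against 17.5% of all genes called and 10.5% called lower. The list's median was -0.42, and the other 8 genes were not called and lay below 0. Trpm1, a melanocyte cation channel gene and MITF target, was 11.4-fold lower, from 4.01 and 3.74 in set 1 to 0.24 and 0.48 in set 2 (difference -3.51, SE 0.14, limma adjusted p 0.00772). Tyr, the rate-limiting enzyme of melanin synthesis, was 3.41-fold lower, from 3.82 and 3.66 to 1.90 and 2.04 (-1.77, adjusted p 0.00923). Oca2, Slc7a11 and Slc45a2 were lower by 1.74, 1.37 and 0.95 on the log2 scale, whereas Tyrp1 and Dct differed by -0.15 and -0.12 and were not called. The largest Cdh1 difference in the list was that of Tpcn2, at -0.27.

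Other reported MITF targets gave 10 of 23 called (43.5%, against 17.5% of all genes), all lower, with a median of -0.28. Met, the receptor for hepatocyte growth factor, was 3.85-fold lower (4.46 and 4.38 in set 1, 2.35 and 2.60 in set 2, limma adjusted p 0.00925), and Brca1, a DNA repair gene, was 3.0-fold lower (adjusted p 0.00772). The largest Cdh1 difference among these was that of Prkcb, at 0.21, with its probe well above background on 3 of the 4 arrays and not on the control array of set 1. With the group as a block, the pigment list had 7 of 17 called and this list 4 of 23, against 4.9% of all probes. A share over all genes was not computed for that fit.

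The SOX10 target and Schwann cell list held calls in both directions. Of 14 tested, 4 were higher and 3 lower in set 2 (50% called, against 17.5% of all genes), with a median of 0.15. Mbp and Pmp22, myelin genes, and Erbb3, the neuregulin receptor, rose by 1.72, 0.94 and 1.26, as did Ngfr (1.11). Cdh19, Dhh and Tyr fell by 0.60, 0.45 and 1.77. The Erbb3 signals in set 1, -4.79 and -5.17, were near the lowest that were flagged well above background. With the group as a block Erbb3, Cdh19 and Dhh were not called (limma adjusted p 0.0504, 0.0533 and 0.0806). Erbb3 also had the largest Cdh1 difference of the list, at -0.18. The summed intensity of the 6 Schwann cell markers was 5667 and 6156 in set 1 and 11658 and 11768 in set 2, whereas that of the 6 melanocyte markers was 856744 and 845673 in set 1 and 786242 and 774820 in set 2. The fibroblast genes Col1a1 and Pdgfra and the endothelial gene Vwf were also lower in set 2, by 1.22, 0.41 and 2.70. The part of any other cell type in the difference between the sets was not tested.

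Of the other transcription factors of the lineage, 24 of 36 were tested and 3 were called (12.5%, against 17.5% of all genes), with a median of -0.09. Snai2, a neural crest zinc finger factor, and Tbx2 were lower by 0.56 and 0.41, and Tcf7l2 was higher by 0.39. With the group as a block none of the 3 was called (limma adjusted p 0.0596, 0.0761 and 0.0734). The factors Lef1, Pou3f2, Zeb1, Irf4 and Sox2 were among the 12 not tested for low signal. Foxd3, a neural crest forkhead factor, had the largest Cdh1 difference, at -0.61 (-0.24 in set 1 and -0.98 in set 2), and was not called. Its probe was well above background on 3 of the 4 arrays and not on the Cdh1 array of set 2, so the value of set 2 is uncertain.

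Receptor signalling genes gave 7 of 36 called, 6 of them lower, a share of 19.4% that is near the 17.5% of all genes. The adenylate cyclase gene Adcy7 was lower by 0.95 and Adcy9 by 0.73, and the cyclic AMP phosphodiesterase genes Pde4d and Pde4b by 0.62 and 0.48. The gene called higher was Prkar2b, by 0.35. The adenylate cyclase genes Adcy2, Adcy3 and Adcy6 lay at 0.13, 0.23 and 0.30 and were not called. The kinase gene Fes was called lower, but its probe lies in the last 24 rows of spots and was not well above background on the Cdh1 array of set 2, so no size is given. With the group as a block only Adcy7 of the 36 was called (limma adjusted p 0.046), against 4.9% of all probes. The ligand genes gave 0 of 7 called, with Kitl, the Kit ligand, at a Cdh1 difference of 0.31 (0.34 in set 1 and 0.27 in set 2), and with Pcsk2, a prohormone convertase gene, and Pomc, the alpha-MSH precursor gene, at -0.58 and 0.35 between the sets; Edn1, Edn2 and Edn3 were not tested for low signal. Genes of the MITF-low melanoma state gave 3 of 12 called (25%, against 17.5% of all genes): Tgfbi and Ngfr were higher by 2.0 and 1.11 and Jun lower by 0.96. Axl, a receptor tyrosine kinase of that state, differed by 0.24 between the sets and was not called. Wnt5a had the largest Cdh1 difference of the list, at 0.41 (0.05 in set 1 and 0.78 in set 2), and was not called. Its signals, from -5.54 to -4.76, were near the lowest that were flagged well above background.

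**Figure D4:**
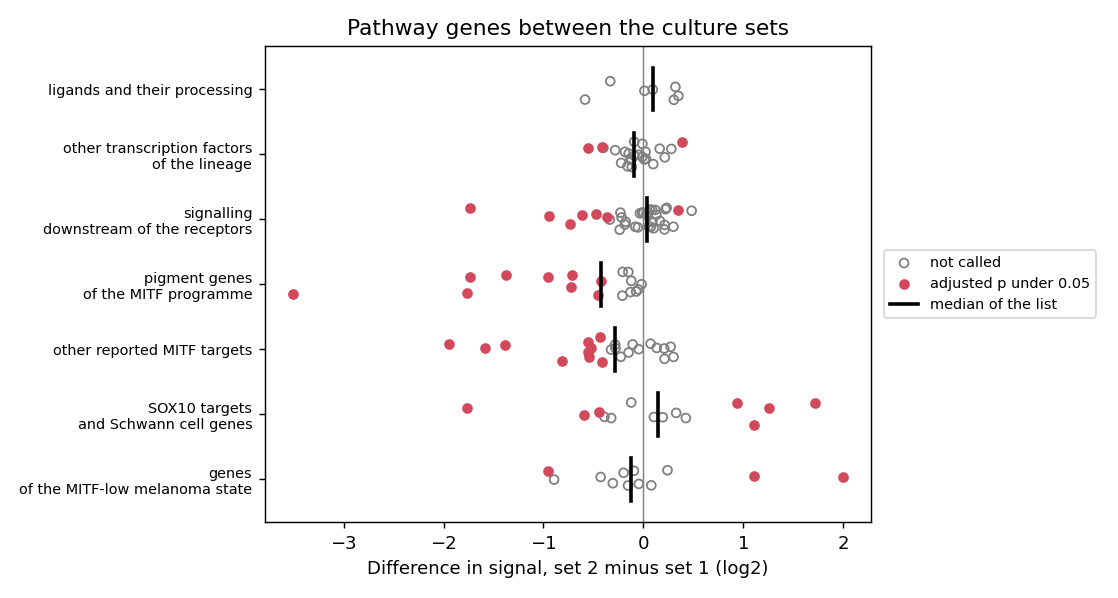
Set 2 minus set 1 in log2 signal (x axis) for the tested genes of 7 lists (rows; vertical scatter is for display), filled where the limma adjusted p was under 0.05, with the median of each list as a bar. The called genes of the pigment list, the lowest being Trpm1 at -3.51, and of the other MITF targets all lie below 0.

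Likeness of pattern over the 4 arrays was measured as the root mean square distance between signals centred on each gene's own mean, over 13990 genes well above background on all arrays. Closest to Sox9 were AA467197 (distance 0.04), Slc24a4 (0.05) and Oas1a (0.10), and only 5 genes lay within 0.1. Closest to the brightest Mitf probe were Lss, Tceal9 and Ankrd29, each at 0.01, among 1498 genes within 0.1, so its pattern was shared widely.

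The brightest Mitf probe and 1 Ednrb probe lay in the last 24 rows of spots, with 6.82% of all tested probes. The other Mitf probes, outside those rows, were lower in set 2 as well. The 75th percentile of intensity was 569 to 576 in set 1 and 616 to 623 in set 2, and 59.3% to 61.3% of spots were well above background.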

How the data were processed

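Total RNA of 4 cultures was hybridised to Agilent 1-colour arrays. The authors read them with Agilent Feature Extraction 12.0.3.1, per the file headers and the submitters' processing notes, and deposited its processed intensity and flags for each spot. The deposited table of processed intensities was that value times 1 factor per array, between 0.873 and 0.930. Non-control spots numbered 59305. Spots flagged as outliers (115 to 143 per array) were left out, spots of a probe were averaged on the log2 scale, and each array's 75th percentile was subtracted. The 32571 probes that passed the scanner's background flag in both cultures of at least 1 group were tested. Accessions were matched, without version, to RefSeq genes of GRCm38.p6; the array design names mm9. A gene was represented by its brightest probe.

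limma 3.58.1 (R 4.3.3, lmFit, eBayes, no block) tested Cdh1 against control and set 2 against set 1, with Benjamini-Hochberg adjustment. The Cdh1 fit was also run on simulated arrays. These had no set effect and larger Cdh1 changes than the members showed, so that run does not bear on these results. Python 3.11.15, pandas 2.3.3 and matplotlib 3.10.9 were also used. The labels pair a control and a Cdh1 culture in each set; the deviations of same-set arrays from their group means correlated at 0.744 over 31155 probes. Normexp used the median spot signal. An exact permutation test of 2 against 2 arrays cannot go below p = 0.333. Members and lists were chosen with earlier results of these data known. Named from each list were the gene with the largest Cdh1 difference and the 2 with the largest set difference; further list genes were chosen after their values were seen. Alternatives covered normalization, background, the authors' table, filters, prior, edge rows, blocks and each array left out.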

Additional observations from a re-analysis of the deposited data

Results flagged for a closer look

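The Cdh1 difference had opposite signs in the 2 culture sets for 3 of the 7 tested genes, each by its brightest probe. Mitf was at 0.117 in set 1 and -0.0221 in set 2, Kit at 0.0647 and -0.0408, and Mc1r at -0.0369 and 0.0515. Each set holds 1 pair of arrays, so the difference between the sets was not tested, and over all tested probes 52.9% had the same direction in both sets.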

How the results depend on the processing

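The count of 0 called member probes between Cdh1 and control was 0 under each alternative, the set as a replicate block included (lowest adjusted p 0.735). The count of 6 between the sets stood beside 4572 of the 32571 tested probes. Without the filter on dim probes it was 0, and 0 of all probes were called. With the group as a block it was 2, beside 1596 of all probes. It was 4 to 9 under the other alternatives that kept all 4 arrays. The 4 came with median centring, beside 3770 of all probes. The 9 came with the trend and robust prior, beside 10714, and normexp gave 7, beside 8499. Between the sets, the directions of Mitf, Sox9, Sox10, Pax3, Kit and Mc1r were kept under each alternative. Differences of members near 0 changed sign. With median centring the Cdh1 difference was -0.032 for Kit and -0.037 for Mc1r. The set difference of Tfap2a was 0.011 with quantile normalization, 0.00011 with normexp and 0.087 as the mean of its probes. With 1 array left out the Cdh1 difference ranged from -0.18 to 0.28 for Mitf, -0.14 to 0.077 for Sox10, -1.53 to 1.26 for Sox9, -0.13 to 0.015 for Pax3, -0.19 to 0.22 for Kit and -0.10 to 0.12 for Mc1r, and the set difference of Tfap2a from -0.081 to 0.023; in such fits the groups no longer hold the same sets, and it is assumed that a lone array varies like the others. Chosen after seeing the data, the group as a block called 0 of the 24 lineage factors tested (3 without it), 1 of 36 signalling genes (7), 4 of 23 other MITF targets (10), 4 of 14 SOX10 list genes (7) and 7 of 17 pigment genes (9). The group as a block called 4.9% of all probes. Median centring called 4 signalling genes, beside 3770 of the 32571 tested probes. The set as a replicate block changed no call between Cdh1 and control. Ednrb is limited by signal over background.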
